A study of Mus musculus with 22 samples.

Results

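The comparison described here set GRDim against GRWT mice on plain drinking water in the 6 of 22 ileal RNA-seq libraries in which the water samples were rich in smooth muscle transcripts. The members were chosen by a measured value: a water library belonged if Myh11, the heavy chain of smooth muscle myosin, made up more than 100 CPM (raw counts scaled to a common library total). Of 11 water libraries, 3 GRDim and 3 GRWT passed. The lowest of the 6 stood at 386 CPM and the highest library outside at 20.5 CPM, so no library lay near the threshold.

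GRDim mice carry a point mutation in the glucocorticoid receptor that impairs its homodimerisation, and GRWT mice carry the wild-type receptor; both were homozygous female FVB/N offspring of heterozygous GRDim/+ crosses, kept in a conventional animal house. The 3 GRDim libraries (replicates 4, 5 and 6) and GRWT replicates 4 and 5 are labelled IEC, material scraped from the inner side of the flushed distal ileum, while GRWT replicate 1 is labelled ileum, a washed tissue piece. The mutation is in the germline, so epithelial and haematopoietic cells both carry it. Although 5 of the 6 libraries are labelled as epithelial cells, all of them held 10 of 10 smooth muscle markers, with a summed level of 1932 to 2752 CPM, next to 10 of 10 epithelial markers at 19031 to 21272 CPM. All 6 are therefore called muscle-rich below, and the tissue label is not used to describe their content. Whether samples or labels were exchanged was not tested. The series' design also names dexamethasone, which no sample label gives, and 2 sequencing sets. The sample titles carry an index of 1 or 2 that runs with the tissue label (1 for ileum, 2 for IEC) and is not said to be the set: all 3 GRDim libraries and GRWT replicates 4 and 5 have 2 and GRWT replicate 1 has 1. Among the columns, 2 of the muscle-poor GRDim water columns share a name and so carry no replicate number here. The other 5 water libraries (3 GRDim, 2 GRWT, all labelled ileum) are called muscle-poor, and 6 of the zinc libraries (3 and 3, from mice given 25 mM zinc sulphate in the drinking water for 7 days) were muscle-rich by the same threshold.

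The glucocorticoid receptor is a ligand-activated transcription factor that induces genes such as Sgk1 and Tsc22d3 as a dimer on palindromic response elements and restrains inflammatory transcription in many cell types. In the gut, interferon-gamma from T cells and innate lymphocytes acts on its receptor on epithelial cells and switches on interferon regulatory factors, which in turn drive guanylate-binding proteins, immunity-related GTPases, antigen presentation genes and components of necroptosis such as Zbp1 and Mlkl. Paneth cells at the crypt base secrete lysozyme and defensins, and enterocytes on the villus absorb and detoxify.

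The 6 libraries held 13415583 to 15362805 counts, so that 3 counts, taken as the floor of detection, corresponded to 0.195 to 0.224 CPM. The first principal component carried 70.8% of the variance of the 6 and separated the genotypes; the second carried 11.5% and set GRWT replicate 1 apart from the rest. No pair of replicates agreed within sampling noise. Where the labels do not state that replicates are separate animals, the p-values measure only the spread between these samples. Nr3c1, the glucocorticoid receptor gene itself, read 234, 241 and 234 CPM in GRDim against 298, 315 and 299 CPM in GRWT (log2 difference -0.36 ± 0.05 SE, adjusted p = 7.77e-05), below the fold threshold used for a call; since the mutation is a point change, this level does not check the genotype labels. Levels below are normalised CPM (TMM, a scaling for library composition) unless said otherwise.

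Of 15418 genes tested, 870 were higher in GRDim (5.64%) and 831 lower (5.39%) at an adjusted p under 0.05 with a log2 fold change beyond 0.8 in the stated direction. Genes of the interferon-gamma response, antigen presentation, epithelial defence against adherent bacteria and lymphocytes were among those higher, and genes of Paneth cells, cytochrome P450 enzymes, nutrient transporters and brush-border hydrolases among those lower. The median change of the called genes was 1.36 and -1.14 on the log2 scale, and 163 and 95 genes changed by more than 2. The values of the GRDim and GRWT libraries did not overlap for 868 of the higher and 819 of the lower genes. The call itself favours genes without overlap, so these counts are no separate result. The share over all tested genes was not counted. Of the higher genes 93 were immunoglobulin or T cell receptor segments, whose reads can be shared between near-identical copies, against 0 of the lower.

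Interferon-gamma itself, Ifng, was called higher although its level was low. It read 2.43, 1.16 and 1.93 CPM in the GRDim libraries and 0.195, 0.075 and 0.071 CPM in the GRWT libraries, all 3 of the latter at or below the floor. Every GRDim library thus stood above every GRWT library (adjusted p = 5.85e-05); reads from the overlapping gene Gm49751 may be included. The receptor chains did not pass the fold threshold and lay slightly below GRWT, Ifngr1 at -0.35 ± 0.05 and Ifngr2 at -0.29 ± 0.05 on the log2 scale, and Ifnar1, a type I interferon receptor chain, did not differ detectably (-0.05 ± 0.06, adjusted p = 0.499), while its partner Ifnar2 lay above GRWT without passing the fold threshold (0.55 ± 0.12, adjusted p = 0.00336; it overlaps Gm21970).

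Of 23 tested members of the interferon signalling list, 7 were higher and 0 lower, with a median log2 change of 0.13 beside 0.00 over all genes. Those that rose were transcription factors, co-activators and a feedback inhibitor. Irf1 (ENSMUSG00000018899, chr11:53770014-53778374), an interferon regulatory factor, read 432, 439 and 411 CPM in GRDim and 210, 248 and 191 CPM in GRWT. The groups were well apart, with a log2 fold change of 0.98 ± 0.08 (adjusted p = 1.06e-05). Nlrc5, the co-activator of MHC class I genes, read 50.3, 51.7 and 46.6 CPM against 5.73, 4.49 and 3.85 CPM. It was the member of this list that moved most (3.39 ± 0.11, adjusted p = 1.51e-09), followed by Socs1, an inhibitor of JAK kinases (2.56 ± 0.12). Ciita, the co-activator of MHC class II genes (1.58 ± 0.24), Irf8 (1.48 ± 0.06) and Batf2 (1.10 ± 0.06) were also called. By contrast, Irf7 and Irf9, which carry the type I interferon response, gave -0.41 ± 0.21 (adjusted p = 0.193) and 0.13 ± 0.06 (adjusted p = 0.109), and the kinases Jak1, Jak2 and Tyk2 lay between -0.31 and 0.10.

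Downstream of these, of 16 tested interferon-gamma-induced effectors and chemokines, 15 were higher (median 2.40). Ubd, a ubiquitin-like modifier, read 327, 251 and 252 CPM in GRDim against 7.23, 2.92 and 1.78 CPM in GRWT (6.08 ± 0.43, adjusted p = 0.000699; 2.98 and 0.0688 in a fit of all 11 water libraries, muscle-poor ones included). Ido1, which degrades tryptophan, read 210, 197 and 185 CPM against 36.7, 37.7 and 35.6 CPM. Both groups were tight for this gene (2.43 ± 0.06, adjusted p = 4.29e-10). Cd274, encoding the checkpoint ligand PD-L1, changed by 2.82 ± 0.18 (1.40 and not called in that fit), uridine phosphorylase Upp1 by 2.65 ± 0.09 and Cxcl9, a chemokine for activated T cells, by 2.61 ± 0.28.

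The interferon-inducible GTPases rose nearly as whole families: 10 of 11 tested guanylate-binding proteins (median 1.73) and 12 of 12 immunity-related GTPases (median 3.16) were called higher. These GTPases attack the vacuoles of intracellular microbes. Igtp (ENSMUSG00000078853, chr11:58199556-58207591) read 324, 300 and 270 CPM in GRDim against 27.6, 32.0 and 21.6 CPM in GRWT. Its lowest GRDim library was far above its highest GRWT library (3.46 ± 0.15, adjusted p = 1.06e-05), with the limit that the gene overlaps Irgm2. Tgtp2 changed by 3.29 ± 0.14, Irgm1 by 1.85 ± 0.07, Gbp6 by 3.04 ± 0.22 and Gbp2 by 1.49 ± 0.09. Gbp6 and Gbp8 (2.43 ± 0.09) overlap neighbouring genes of the same cluster, and reads of near-identical family members may be misassigned.

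The start regions of these genes are shown because so many of the family moved together. The windows are from RefSeq on GRCm38.p6, 250 bases before to 50 after an annotated start; capitals mark matches to the interferon-stimulated response element (ISRE), searched as GAAANNGAAA on both strands, and to the gamma-activated site (GAS), searched as TTCNNNGAA, which reads alike on both strands. Igtp (chr11:58199306-58199605, plus strand) holds a GAS 45 and an ISRE 34 bases before the start, Irgm1 (chr11:48871371-48871670, minus strand) 2 overlapping ISREs, Gbp2 (chr3:142620413-142620712, plus strand) 1 ISRE on the reverse strand and Irf1 (chr11:53769764-53770063, plus strand) 1 GAS 90 bases before the start.

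Igtp: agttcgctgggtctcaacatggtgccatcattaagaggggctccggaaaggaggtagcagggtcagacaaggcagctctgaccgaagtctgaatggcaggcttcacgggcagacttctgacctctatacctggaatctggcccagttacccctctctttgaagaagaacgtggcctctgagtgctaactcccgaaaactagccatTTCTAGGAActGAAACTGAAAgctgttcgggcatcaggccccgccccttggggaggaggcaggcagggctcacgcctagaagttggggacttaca
Irgm1: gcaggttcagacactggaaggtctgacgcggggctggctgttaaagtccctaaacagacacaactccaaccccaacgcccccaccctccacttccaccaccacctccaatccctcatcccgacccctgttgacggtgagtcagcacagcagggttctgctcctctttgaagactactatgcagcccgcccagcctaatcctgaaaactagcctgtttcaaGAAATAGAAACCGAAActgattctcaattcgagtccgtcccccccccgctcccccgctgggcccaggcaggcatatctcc
Gbp2: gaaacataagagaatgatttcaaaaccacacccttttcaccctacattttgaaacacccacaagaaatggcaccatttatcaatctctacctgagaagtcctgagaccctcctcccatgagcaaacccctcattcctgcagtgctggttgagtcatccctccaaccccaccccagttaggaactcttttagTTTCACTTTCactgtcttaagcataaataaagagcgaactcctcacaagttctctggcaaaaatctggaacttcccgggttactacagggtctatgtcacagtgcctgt
Irf1: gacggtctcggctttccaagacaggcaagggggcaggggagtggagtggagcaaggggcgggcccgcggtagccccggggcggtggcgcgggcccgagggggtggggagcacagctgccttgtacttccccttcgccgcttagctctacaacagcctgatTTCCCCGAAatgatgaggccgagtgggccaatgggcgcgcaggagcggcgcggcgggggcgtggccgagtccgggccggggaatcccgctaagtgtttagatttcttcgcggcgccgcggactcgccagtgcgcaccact

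An ISRE match was present in 3.44% of all 32851 windows, in 3.26% of the windows of genes tested and in 9.83% of the windows of genes called higher (69 of 702, from the 554 of 870 genes with a window), against 3.81% for genes called lower (28 of 735, from 559 of 831). The immunity-related GTPases held it in 6 of 8 windows and the guanylate-binding proteins in 5 of 6. The antiviral interferon-stimulated list, whose members moved in both directions, held it in 18 of 34 windows. The interferon-gamma effectors, nearly all higher, held it in 1 of 11. For the GAS the shares were 8.30% of all windows, 6.98% of those of genes tested, 10.7% of those of higher genes and 6.53% of those of lower genes. A match describes the letters in the window and does not show that a factor binds there; the windows of Tap1, Psmb9, Ubd and Cxcl9 hold neither string.

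**Figure D1:**
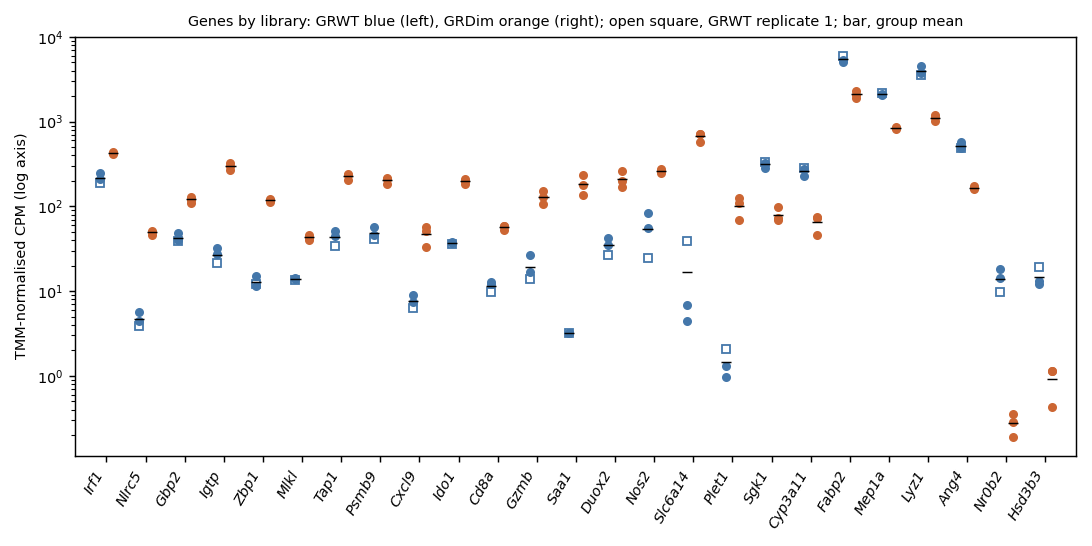
Normalised CPM (log axis) of 25 genes in each of the 6 muscle-rich water libraries; each point is 1 library, with the open square marking GRWT replicate 1, the library labelled ileum. In each of the genes drawn, all 3 GRDim libraries lie on 1 side of all 3 GRWT libraries, for example Igtp at 270 to 324 CPM against 21.6 to 32.0 CPM.

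MHC class I presentation was higher in 19 of 25 tested members (median 0.94) and class II in 8 of 11 (median 1.06). Tap1, a chain of the peptide transporter, read 238, 238 and 202 CPM in GRDim against 51.2, 44.3 and 34.0 CPM in GRWT. The change of 2.39 ± 0.16 (adjusted p = 0.000166) was near that of the immunoproteasome subunit Psmb9 (2.08 ± 0.13). The abundant light chain B2m rose from 1594 to 1815 CPM in GRWT to 2834 to 3191 CPM in GRDim, a smaller change of 0.81 ± 0.07 close to the fold threshold (0.77 without GRDim replicate 4 or GRWT replicate 5). Among class II genes, the peptide loader H2-DMa read 164, 155 and 155 CPM against 74.9, 59.6 and 53.5 CPM (1.33 ± 0.11, adjusted p = 8.89e-05). In the GRWT libraries the class II genes were lowest in replicate 1: the summed level of the list was 3439, 2647 and 2095 CPM in replicates 4, 5 and 1, against 5108 to 5535 CPM in GRDim.

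Antiviral genes typical of type I interferon moved in both directions, with 11 of 40 higher, 4 lower and a median of 0.17. Ifit2 (3.15 ± 0.22) and Usp18 (1.95 ± 0.17) were higher. Oas2 read 0.785, 0.726 and 0.643 CPM in GRDim against 3.97, 1.80 and 4.28 CPM in GRWT and was lower (-2.22 ± 0.35, adjusted p = 0.000319). Isg15 and Mx1, classical markers of that response, gave 0.39 ± 0.23 (adjusted p = 0.229) and -0.24 ± 0.20 (adjusted p = 0.369), and their groups overlapped.

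Of 18 tested necroptosis and death receptor genes, 5 were higher and 0 lower (median 0.32). The sensor, the kinase and the executioner of the pathway were among them. Zbp1 (ENSMUSG00000027514, chr2:173206612-173218923), a sensor of Z-form nucleic acids, read 118, 123 and 114 CPM in GRDim against 15.2, 11.5 and 12.3 CPM in GRWT. Its difference of 3.18 ± 0.09 (adjusted p = 5.14e-10) was the widest of the list. Mlkl (ENSMUSG00000012519, chr8:111311797-111338177), the pseudokinase that permeabilises the membrane, read 41.9, 46.5 and 40.5 CPM against 14.3, 14.1 and 13.4 CPM (1.63 ± 0.08). Its activating kinase Ripk3 read 56.3, 57.5 and 53.0 CPM against 29.1, 27.8 and 28.1 CPM (0.97 ± 0.06). For both genes the groups stood apart with little spread inside them. Also called, near the fold threshold and not in every fit, were the TNF receptor Tnfrsf1b (0.87 ± 0.10) and the ubiquitin editor Tnfaip3 (0.84 ± 0.07). The upstream components Ripk1 (0.11 ± 0.05, adjusted p = 0.113), Casp8 (0.17 ± 0.05), Fadd (0.08 ± 0.09) and the receptor Tnfrsf1a (0.08 ± 0.05) were not called. In the inflammasome and pyroptosis list 5 of 19 were higher and 1 lower, led by the gasdermin Gsdmc3 (1.48 ± 0.12) and Casp4 (1.45 ± 0.06), the sensor of intracellular lipopolysaccharide; Gsdmc2, Gsdmc3 and Gsdmc4 are close copies that may share reads.

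Genes that ileal epithelium switches on when bacteria adhere were higher in 15 of 24 tested members and lower in 1 (median 1.71). Saa1, a serum amyloid A, read 135, 235 and 181 CPM in GRDim against 3.19, 3.22 and 3.21 CPM in GRWT. The muscle-rich GRWT libraries held it at a uniformly low level (5.84 ± 0.33, adjusted p = 0.000246, but 3.05 and 0.0604 in a fit of all 11 water libraries). Scaled over all 22 libraries, it averaged 61.4 CPM in muscle-poor GRWT and 121 CPM in muscle-poor GRDim on water. Duox2, the epithelial oxidase that releases hydrogen peroxide, read 201, 262 and 169 CPM against 34.7, 42.7 and 26.5 CPM (2.61 ± 0.27), and its maturation factor Duoxa2 changed by 3.71 ± 0.37, a value that may include reads of the overlapping Duoxa1. Nos2, inducible nitric oxide synthase, read 265, 279 and 246 CPM against 55.0, 82.9 and 24.4 CPM (2.29 ± 0.47, adjusted p = 0.0209), and lost its call when single replicates were left out (0.0614 to 0.0779 without GRDim replicate 4, 5 or 6 or GRWT replicate 4). Reg3g rose by 1.00 ± 0.22, whereas the related lectin Reg3a was the member that fell (-1.75 ± 0.32), but without GRDim replicate 4 Reg3a reached only an adjusted p of 0.0557 and without GRWT replicate 1 or 4 Reg3g only 0.0899 or 0.0815; Reg3b overlapped between the groups (0.32 ± 0.20, adjusted p = 0.277). Pigr, which carries immunoglobulin A across the epithelium, rose by 1.31 ± 0.06. Il17a, the cytokine of type 17 lymphocytes, read 3.36, 1.89 and 1.16 CPM in GRDim and had no count in any GRWT library, where the floor of 3 counts allows up to 0.197, 0.224 and 0.211 CPM; no fold is given.

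Among the 12 eligible genes with the largest rise were also Slc6a14, Plet1, Ceacam10 and Cd177. Slc6a14, a carrier of neutral and basic amino acids, read 581, 715 and 720 CPM in GRDim against 6.84, 4.49 and 39.6 CPM in GRWT. GRWT replicate 1 stood above the other GRWT libraries, and the error was wide (5.31 ± 0.90, adjusted p = 0.0117; 3.10 and 0.0568 in all 11 water libraries). Plet1, a surface marker of progenitor epithelium, read 109, 125 and 69.6 CPM against 1.30, 0.973 and 2.07 CPM (6.11 ± 0.42, adjusted p = 0.000465). Ceacam10 (4.12 ± 0.14) and Cd177 (3.81 ± 0.10), neighbours on chromosome 7, stood at 106 to 119 and 93.7 to 115 CPM in GRDim against 4.89 to 8.41 and 6.84 to 8.34 CPM in GRWT.

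Markers of lymphocytes moved with the interferon genes. The T and intraepithelial lymphocyte list was higher in 26 of 27 tested members (median 2.12), and its summed level was 725 to 829 CPM in GRDim against 129 to 189 CPM in GRWT. Cd8a read 59.3, 58.1 and 52.8 CPM against 12.2, 12.9 and 9.84 CPM (2.28 ± 0.10), and the pan T cell marker Cd3e 21.6, 20.5 and 21.4 CPM against 6.12, 4.57 and 3.85 CPM (2.12 ± 0.14). The cytotoxic granule protease Gzmb changed by 2.74 ± 0.30 and the T cell surface receptor Cd6 by 3.22 ± 0.15. In bulk tissue, more cells of a type and more RNA per cell cannot be told apart, and the part of this shift in the interferon-gamma genes was not tested.

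Of 15 tested B and plasma cell genes, 10 were higher (median 1.47). Igha, the immunoglobulin A heavy chain constant region, read 11211, 9965 and 12497 CPM against 4763, 3781 and 3369 CPM (1.50 ± 0.15, adjusted p = 0.000359), and Ighm, of immunoglobulin M, 227, 130 and 178 CPM against 15.6, 10.8 and 9.34 CPM (3.90 ± 0.33). Both were apart in every library, the M chain by the wider margin. Macrophage and dendritic cell genes moved less: 3 of 20 were higher and 1 lower, the latter being Mertk, a receptor for dying cells (-1.29 ± 0.07). The 4 called mast cell genes were all low, with the protease Mcpt1 at 9.85, 8.2 and 4.89 CPM against 1.95, 1.80 and 0.641 CPM (2.37 ± 0.41).

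Among markers of the deeper wall, some of enteric neurons and glia fell. No fibroblast or endothelial marker was called of 20 and 11 tested. The summed smooth muscle level was 1932 to 2173 CPM in GRDim and 2514 to 2752 CPM in GRWT, with a median log2 change of -0.43 over the 10 markers; since the libraries were selected on Myh11, these values are given with no test. The enteric neuron and glia list had 4 of 15 members lower, among them the neuropeptide Vip (-1.11 ± 0.21), with a summed level of 54.2 to 63.3 CPM against 88.2 to 106.5 CPM. With the summed smooth muscle level as a covariate 1 of 15 was lower, and Vip was not called (-0.22, adjusted p = 0.813). Markers of mesenteric fat split the libraries across genotypes: Adipoq, the adipocyte hormone, stood at 9.07 CPM in GRDim replicate 4 and at 14.4 and 18.9 CPM in GRWT replicates 4 and 5, and at or below 0.064 CPM in the other 3 libraries. The part of these differences in the counts of called genes was not tested beyond a fit with summed smooth muscle expression as a covariate, described below.

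**Figure D2:**
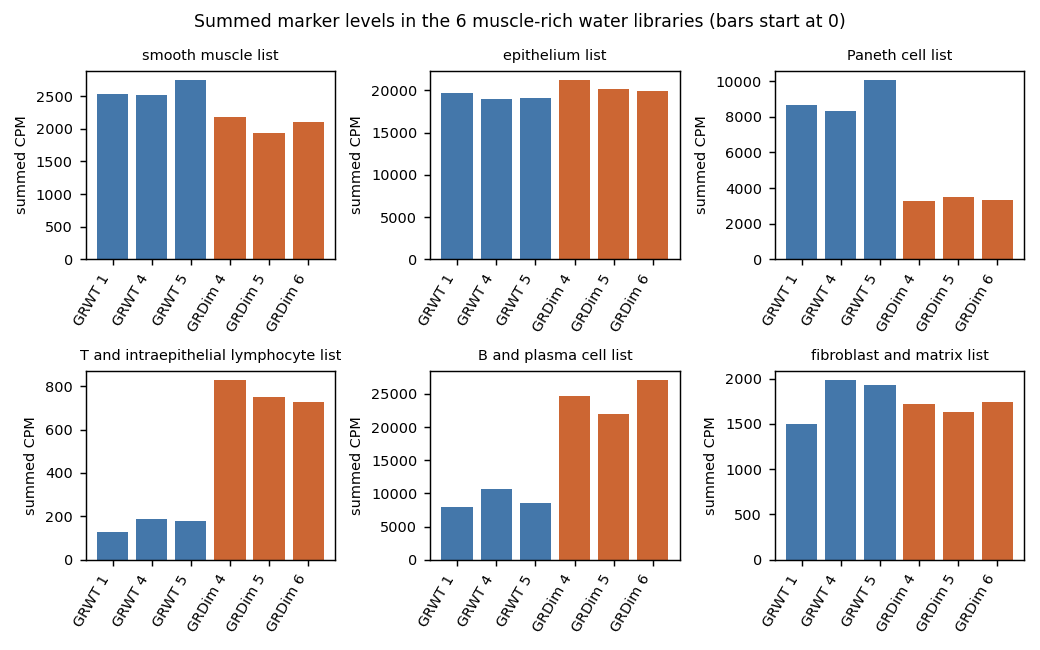
Summed CPM of cell type marker lists in each of the 6 libraries; each bar is 1 library, coloured by genotype, and starts at 0. Lymphocyte sums lie higher in every GRDim library (T and intraepithelial lymphocyte 725 to 829 against 129 to 189 CPM), while smooth muscle sums lie lower in GRDim and epithelial sums are 19031 CPM or more in all 6.

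On the lower side, Paneth cell genes stood out by their share, with 11 of 14 tested members lower and 0 higher (median -1.62). Lyz1 (ENSMUSG00000069515, chr10:117287797-117292868), the Paneth cell lysozyme, read 1015, 1183 and 1129 CPM in GRDim against 3763, 4557 and 3529 CPM in GRWT. The highest GRDim library held less than any GRWT library by a wide margin (-1.83 ± 0.10, adjusted p = 9.54e-07). The lectin Itln1 (-1.83 ± 0.11), the angiogenin Ang4 (-1.64 ± 0.07) and the alpha-defensin Defa30 (-1.65 ± 0.07) changed by nearly the same amount, though defensin genes are close copies whose reads may be shared. Mmp7, the protease that activates these defensins, changed less and was not called (-0.35 ± 0.08). Goblet cell genes were mostly not called (1 higher and 1 lower of 16), with Zg16, a mucus lectin, lower (-0.91 ± 0.06) and the glycosyltransferase B3gnt7 higher (3.11 ± 0.21). None of 17 stem cell genes was called; Lgr5 and Olfm4 gave -0.55 ± 0.10 and -0.43 ± 0.07. Of 18 enteroendocrine genes 4 were lower and 1 higher, with neurotensin, Nts, at 63.0, 65.5 and 71.1 CPM against 158, 151 and 145 CPM (-1.19 ± 0.06) and the precursor of substance P, Tac1, rising by 1.01 ± 0.10.

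Cell cycle genes shifted by a smaller step: 5 of 28 were higher (median 0.62) and another 21 passed the adjusted p with a change below the fold threshold. Ccnd1, which carries cells into S phase, read 285, 288 and 257 CPM against 117, 122 and 109 CPM (1.25 ± 0.06), and Mki67 changed by 0.74 ± 0.11, just under the fold threshold (0.80 without GRDim replicate 4 and 0.82 without GRWT replicate 5, both called).

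The absorptive and metabolic programme of villus enterocytes was lower in many members. Of 25 nutrient and ion transporters 11 were lower and 1 higher (median -0.78), and of 18 brush-border digestive enzymes 7 were lower and 1 higher (median -0.66). Slc2a2, the basolateral glucose transporter, read 0.214, 0.145 and 0 CPM in GRDim against 6.91, 6.14 and 2.92 CPM in GRWT. The paralogues Slc5a4a (-3.05 ± 0.25) and Slc5a4b (-3.06 ± 0.22) fell by like amounts, with the limit that paralogues may share reads. Slc15a1, the peptide transporter, read 230, 212 and 230 CPM against 445, 417 and 615 CPM (-1.13 ± 0.16). The sodium/proton exchanger Slc9a3 was the member that rose (1.82 ± 0.10). Among hydrolases, the metalloprotease Mep1a read 845, 819 and 867 CPM against 2046, 2144 and 2152 CPM (-1.33 ± 0.05, adjusted p = 6.28e-09), and sucrase-isomaltase, Sis, 896, 838 and 859 CPM against 1545, 1920 and 1812 CPM (-1.02 ± 0.07). Both genes were tight within each genotype. Epcam, a marker of all epithelial cells, changed by -0.30 ± 0.05, and none of the 10 epithelial markers was called.

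Enzymes that handle drugs and endogenous lipids were lower in many members, with 11 of 19 tested members of the cytochrome P450 2, 3 and 4 families lower and 0 higher (median -1.28). Cyp3a11, a major steroid and drug hydroxylase, read 73.4, 46.2 and 75.0 CPM against 273, 226 and 285 CPM (-2.01 ± 0.23, adjusted p = 0.00275; -1.05 and 0.167 in all 11 water libraries), and Cyp2d26 30.2, 24.9 and 34.0 CPM against 160, 163 and 205 CPM (-2.56 ± 0.15). Cyp4b1 changed by -2.13 ± 0.10. Cyp3a44 changed by -3.66 ± 0.34, but as a close copy of Cyp3a11 it may share its reads. Of 23 conjugation and export genes 4 were lower, with the export pump Abcc2 at -1.81 ± 0.11 and the sulphotransferase Sult1a1 at -2.0 ± 0.26. Cyp1a1, the target of the aryl hydrocarbon receptor, read 0.286, 0 and 0.643 CPM against 11.1, 3.29 and 15.3 CPM (adjusted p = 0.0217), and this call was lost when single replicates were left out, at an adjusted p of up to 0.082; it was the only 1 of the 9 tested members of that list to be called.

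Lipid genes were lower in smaller numbers: 5 of 22 for fatty acid oxidation and PPAR targets and 3 of 17 for lipoproteins and fat absorption. Fabp2, the intestinal fatty acid-binding protein, read 2283, 1926 and 2084 CPM against 5073, 5318 and 5971 CPM (-1.38 ± 0.08, adjusted p = 1.04e-07). Apoa1 changed by -1.23 ± 0.09 and the pancreatic lipase cofactor Clps by -2.39 ± 0.13. In the ileal bile acid axis 1 of 8 was lower and 1 higher. Nr0b2, which encodes the repressor SHP induced through the bile acid receptor, read 0.357, 0.290 and 0.193 CPM in GRDim against 14.1, 18.3 and 9.91 CPM in GRWT. It was near the floor in all GRDim libraries, and its fitted change of -5.62 ± 0.33 (adjusted p = 6.64e-07; -2.39 and 0.0715 in all 11 water libraries) was the largest fall among the genes eligible for naming. Another target of that receptor, the hormone Fgf15, read 11.6, 15.5 and 2.51 CPM against 41.7, 51.7 and 23.1 CPM and did not pass (-1.99 ± 0.68, adjusted p = 0.0851; 0.0345 by DESeq2), whereas the bile acid exporter Abcc3 rose (1.53 ± 0.06).

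The glucocorticoid response list bears on the mutation most directly. Of its 22 tested members 5 were lower and 1 higher, with a median of -0.34. Sgk1 (ENSMUSG00000019970, chr10:21882184-21999903), a kinase that controls epithelial sodium transport, read 72.6, 68.5 and 99.1 CPM in GRDim against 285, 325 and 332 CPM in GRWT. All 3 GRDim libraries lay far below the GRWT range (-1.97 ± 0.16, adjusted p = 0.000374). Angptl4, a lipase inhibitor, changed by -1.54 ± 0.28 and Pdk4, a brake on pyruvate oxidation, by -1.22 ± 0.23. Tsc22d3, which encodes GILZ, read 32.8, 26.3 and 38.3 CPM against 49.1, 50.6 and 51.8 CPM and missed the fold threshold (-0.63 ± 0.12, adjusted p = 0.002), as did Fkbp5 (-0.45 ± 0.14, adjusted p = 0.0428), while Per1 gave -0.12 ± 0.14 (adjusted p = 0.509). Cebpd was the member that rose (0.95 ± 0.12).

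RefSeq gives Sgk1 several starts, and 2 of their windows hold the spaced half-sites of a glucocorticoid response element, searched as ACANNNTGT, which reads alike on both strands; they are shown with the match in capitals, for chr10:21978422-21978721 and chr10:21993640-21993939 on the plus strand of GRCm38.p6.

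Sgk1, first window: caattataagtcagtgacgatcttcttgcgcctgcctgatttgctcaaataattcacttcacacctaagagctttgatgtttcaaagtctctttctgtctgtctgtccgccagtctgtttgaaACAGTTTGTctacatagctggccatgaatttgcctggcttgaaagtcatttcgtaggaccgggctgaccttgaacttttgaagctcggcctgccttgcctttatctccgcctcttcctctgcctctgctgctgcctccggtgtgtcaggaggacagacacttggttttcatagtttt
Sgk1, second window: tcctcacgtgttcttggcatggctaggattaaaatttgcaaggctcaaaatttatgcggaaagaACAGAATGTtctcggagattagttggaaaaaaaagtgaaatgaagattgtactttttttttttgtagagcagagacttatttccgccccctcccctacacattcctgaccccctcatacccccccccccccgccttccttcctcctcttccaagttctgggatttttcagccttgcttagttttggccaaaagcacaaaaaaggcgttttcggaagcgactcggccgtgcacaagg

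That string was found in 6.85% of all windows and 4.61% of those of the genes tested, in 6.84% of the windows of genes called higher and in 7.35% of those of genes called lower, and in 3 of 31 windows of the glucocorticoid response list. The windows are short, and elements farther away were not searched.

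In gut steroid synthesis and receptors 3 of 9 were lower, among them Hsd3b3 at 1.14, 0.435 and 1.16 CPM against 12.2, 13 and 19.2 CPM (-3.99 ± 0.30, with an overlap of Zfp697), and Hsd17b2 (-0.87 ± 0.05). Of 17 clock genes 3 were lower, namely Npas2, Per2 and Cry2, each at -1.01, and 1 higher. With the smooth muscle covariate 0 were called, with Npas2 at -0.79 (adjusted p = 0.0579), Per2 at -0.38 (0.399) and Cry2 at -1.04 (0.0529). Without GRWT replicate 1 the list had 3 lower and 2 higher, and its median was -0.15 instead of -0.46. Among heat shock and immediate early genes 3 of 14 were lower, while none of 14 unfolded protein response genes was called.

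**Figure D3:**
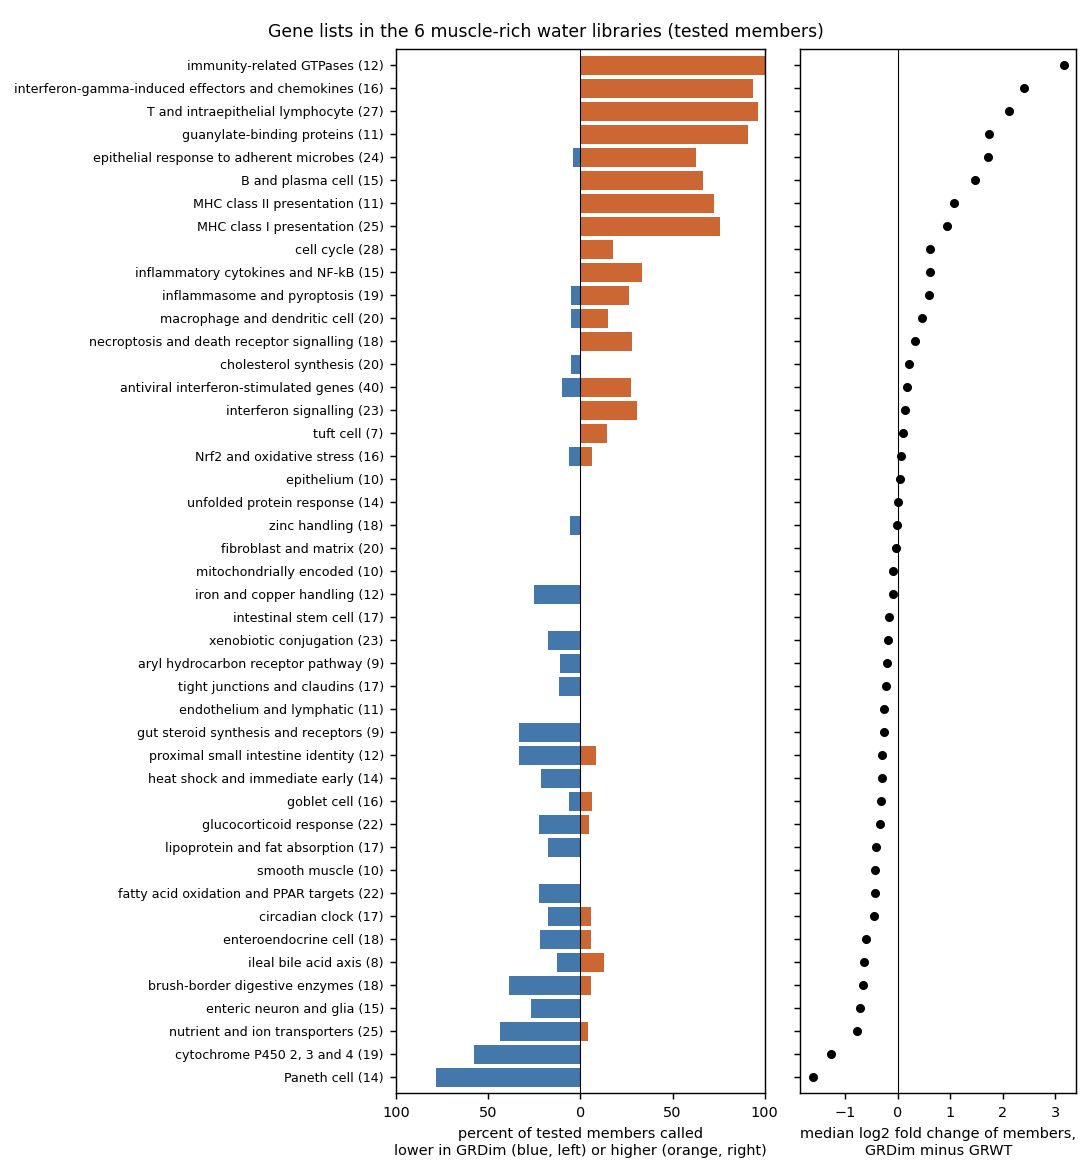
Gene lists with at least 7 tested members: percentage of members called higher and lower in GRDim (bars) and median log2 fold change of the tested members. Immunity-related GTPases (median 3.16) and T lymphocyte genes (median 2.12) lie to the higher side, and Paneth cell (median -1.62) and cytochrome P450 genes (median -1.28) to the lower side, beside 5.64% and 5.39% of all genes.

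GRWT replicate 1 differs from the other 5 libraries in its tissue label and stands apart in the second component. Without it, 816 genes were higher and 840 lower, of which 750 and 702 were also called with it, with 13 of the interferon-gamma effectors, 10 guanylate-binding proteins, 12 immunity-related GTPases, 26 T lymphocyte and 11 Paneth cell genes called in the same direction. Other counts moved more, with 8 of 17 inflammatory cytokine and NF-kB genes higher (5 of 15 with it), 6 of 18 enteroendocrine genes lower (4 with it) and 0 tight junction and 0 aryl hydrocarbon receptor genes lower (2 and 1 with it). With the summed smooth muscle level as a covariate the counts fell to 365 and 298, of which 300 and 212 were shared; this covariate itself did not overlap between the genotypes, so genotype and muscle content cannot be told apart in that fit. In that fit 8 immunity-related GTPases, 5 guanylate-binding proteins and 9 interferon-gamma effectors were called higher, with 15 MHC class I, 16 T lymphocyte and 0 MHC class II genes, and 6 Paneth cell, 4 cytochrome P450 and 1 glucocorticoid response genes were called lower. The median log2 changes stayed near those of the fit without it for the immunity-related GTPases (3.21), guanylate-binding proteins (1.80), MHC class I (0.99) and II (1.25), T lymphocyte (2.21) and glucocorticoid response genes (-0.40), and were 2.07 for the effectors, -1.60 for cytochrome P450 and -1.18 for Paneth cell genes. The antiviral list turned to 5 higher and 7 lower (median -0.05). Of the 165 called genes named by the rule, 78 lost their call with the covariate, among them Sgk1 (-1.59, adjusted p = 0.0996), Tap1 (2.37, 0.07) and Slc2a2 (-4.33, 0.147). In the fit of all 11 water libraries 53 lost theirs, among them Irf1 (0.57), Batf2 (0.70), Ripk3 (0.65), Cd274 (1.40, adjusted p = 0.0811), Cyp3a11 (-1.05, 0.167), Npas2 (-0.55, 0.072), Nts (-0.76) and Zg16 (-0.66), and, of genes outside the rule, so did Nos2 (1.21, 0.106), Gzmb (1.57, 0.0595), Pigr (0.70) and B2m (0.44).

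The same contrast in muscle-rich libraries of zinc-treated mice shares no library with the one above and asks whether the differences recurred under zinc. There 311 genes were higher (2.03%) and 230 lower (1.5%) of 15300. All 3 GRDim libraries of this contrast and GRWT replicate 1 are labelled ileum and GRWT replicates 4 and 5 IEC, so genotype largely coincides with the tissue label and with the index in the titles, fully so without GRWT replicate 1. In that fit 514 genes were higher, and without GRDim replicate 2 or GRWT replicate 4 the lower ones numbered 147 or 142. Of the genes higher on water and tested under zinc, 729 of 813 had the same sign (89.7%), 243 were called the same way (29.9%) and 0 the opposite way, with a median of 0.67. For the lower genes the counts were 763 of 794 (96.1%), 184 (23.2%) and 0, with a median of -0.66, beside 74.6% of all genes with the same sign. Seen from the zinc side, 78.1% of the higher and 80.0% of the lower calls were also called on water.

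By group, the interferon-gamma effectors (10 of 16 higher), immunity-related GTPases (9 of 10), MHC class II genes (8 of 11) and T lymphocyte genes (15 of 25) had many members called higher under zinc, whereas guanylate-binding proteins had 3 of 9 (median 0.71) and B and plasma cell genes 4 of 15 (median 0.15). Igtp differed by 3.18, Zbp1 by 2.59, Nlrc5 by 2.53 and Ido1 by 2.43 on the log2 scale. The median was 2.08 for the immunity-related GTPases and 1.54 for the effectors, beside 3.16 and 2.40 on water. On the lower side, 3 of 14 Paneth cell genes (median -1.19), 3 of 19 cytochrome P450 genes and 2 of 25 transporters were called. Lyz1 gave -1.28 without a call, Sgk1 -0.38 and Nr0b2 -2.19, also without one. Whether zinc altered any of these differences was not tested.

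In the 5 muscle-poor water libraries the genotypes differed in fewer genes, with 77 higher (0.569%) and 88 lower (0.65%) of 13533; leaving out 1 library moved these to between 38 and 148 and between 45 and 163, the lowest without GRWT replicate 2 and the highest without GRWT replicate 3. Each of these last fits leaves 1 GRWT library, which is assumed to vary like the GRDim ones. Of the genes called in the muscle-rich libraries, 605 of 681 higher (88.8%) and 514 of 621 lower (82.8%) had the same sign there, beside 67.1% of all genes. However, only 39 and 45 were called the same way, 5 and 1 were called the opposite way, and the medians were 0.38 and -0.37. Igtp gave 0.59, Zbp1 0.46, Ido1 0.21, Cd8a 0.45, Lyz1 -0.50, Fabp2 -0.68 and Sgk1 -0.34, none of them called. Genes that were called there included Gbp6 at 4.65 and Gbp8 at 3.33, and 5 of 16 tested clock genes were lower. Scaled over all 22 libraries, mean Igtp on water was 236 CPM in muscle-poor GRWT, 24.9 CPM in muscle-rich GRWT and 272 CPM in muscle-rich GRDim. In the same order Zbp1 read 94.0, 11.9 and 108 CPM and Ubd 290, 3.66 and 253 CPM. For these genes muscle-poor GRWT lay closer to muscle-rich GRDim than to muscle-rich GRWT. Fabp2 read 6561, 5007 and 1915 CPM and Sgk1 169, 288 and 73.1 CPM, without that pattern.

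The difference between the classes was tested as an interaction of genotype with muscle class in all 11 water libraries. It passed for 1754 of 15982 genes (11%), or for 803 without GRWT replicate 3, 1 of the 2 muscle-poor GRWT libraries, where the remaining one is assumed to vary like the other groups. It passed for 334 of the genes called higher and 267 of those called lower in the muscle-rich libraries; because these genes were picked for their difference in libraries that the interaction also uses, neither the counts nor the direction of their interaction are independent evidence. Ido1 differed by 2.21 (adjusted p = 1.02e-06), B2m by 0.84, Zbp1 by 2.72, Igtp by 2.86, Fabp2 by -0.70 and Lyz1 by -1.34 between the classes, and Gbp6 by -1.62 (adjusted p = 0.0461), here with the larger difference in the muscle-poor class, whereas Sgk1 (-1.63, adjusted p = 0.167) and Igha (0.16, adjusted p = 0.853) did not pass. All muscle-rich GRDim libraries on water are labelled IEC and all muscle-poor ones ileum, so muscle class and tissue label cannot be told apart in that genotype. Of the 4 mast cell genes called higher, 3 went the other way in the muscle-poor class: Mcpt1 was called lower in muscle-poor GRDim libraries (-2.92), as were Mcpt2 (-2.73) and Cpa3 (-2.71). Gbp10 did so too: it read 3.57, 3.41 and 1.54 CPM in muscle-rich GRDim against at most 0.13 CPM in GRWT and was called higher, yet among muscle-poor libraries it was called lower (-2.18, adjusted p = 0.00469); it overlaps Gm43302 and lies in a cluster of close copies.

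The genes called the same way in all 3 comparisons numbered 20 higher and 19 lower. Among the higher were Gbp6, Gbp8, H2-Q7, Nox1, Slc9a3, Alox15, Jchain and Igkc. Jchain, which joins the units of secreted immunoglobulin A, gave 1.48, 1.41 and 1.22 on the log2 scale. The lower ones included Slc2a2, Slc47a1 (a drug exporter), the deiodinase Iyd, Clps and Cyp4b1. Cyp4b1, a fatty acid hydroxylase, gave -2.13, -1.47 and -1.69 in the 3 comparisons, and Iyd -2.98, -1.38 and -1.38.

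**Figure D4:**
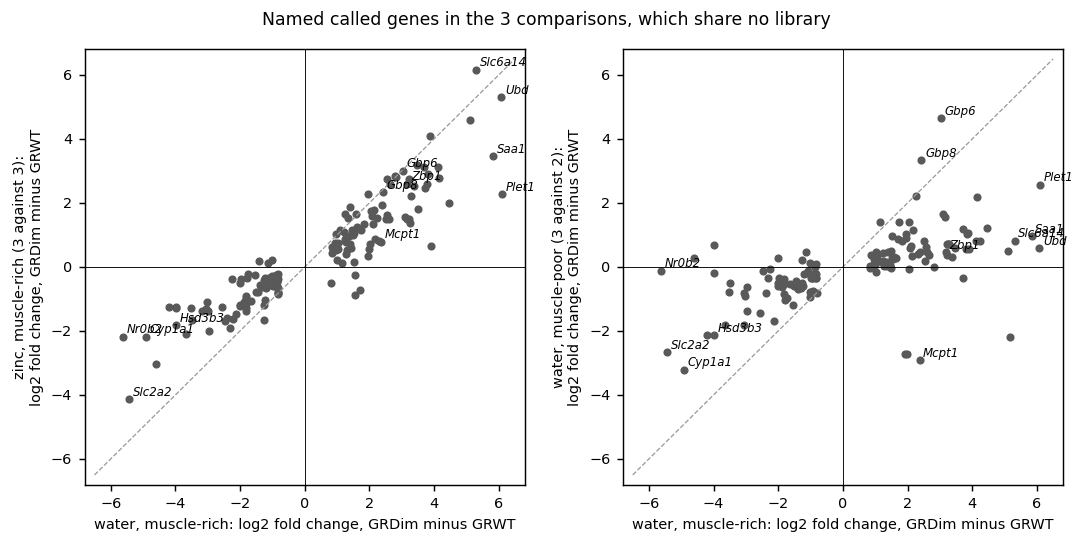
Log2 fold change of named called genes in the muscle-rich water comparison (horizontal) against the zinc muscle-rich and the water muscle-poor comparison (vertical); each point is 1 gene. Most points keep their sign in both panels, with values nearer to 0 in the muscle-poor libraries, as for Zbp1 at 3.18 against 0.46.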

How the data were processed

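The authors deposited raw gene counts for each library. Per the labels and the study's methods, stranded single-end reads were aligned to mm10 with HISAT 2.0.4 and counted with featureCounts without multi-mapping reads, and the authors tested with DESeq2; the strand setting and annotation release are not given in the sources used here. Multi-mapping reads left out lower the counts of near-identical genes.

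Here the counts of the 6 libraries were fitted with edgeR 4.0.16 (R 4.3.3; TMM scaling, filterByExpr on genotype, robust quasi-likelihood F test, Benjamini-Hochberg adjustment over all genes tested), with calls at an adjusted p under 0.05 and a log2 fold change beyond 0.8, the study's cut-offs. The zinc muscle-rich, water muscle-poor and interaction fits were made in the same way on their own libraries. Gene positions come from GENCODE on GRCm38 and promoter windows from RefSeq on GRCm38.p6. Counts in these 6 libraries totalled 13415583 to 15362805, and 3 counts set the floor; floors cover counting error only. The fit was tested on simulated counts with known changes.

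Genes were selected for naming by rule: the 12 largest changes in each direction among eligible genes. Eligible genes were called, with a mean of at least 5 CPM, no overlap of groups and a proper symbol. Also selected were up to 5 called members of each of 50 lists. All members of the interferon signalling, necroptosis and glucocorticoid lists were selected too. Not every selected gene is described above, for example Il5ra (log2 change -4.19) and Ccl8 (3.77), which are among the 12 largest falls and rises. Other named genes (such as Ido1, Gbp2, Irgm1, Duox2, Nos2, Pigr, Cd8a, Gzmb, Igha, Jchain, Ang4, Sis and Slc15a1) and the promoters shown were chosen after their values were seen. The libraries and lists were chosen with earlier results of these data known. 1 member of the interferon signalling list is counted but not reported here. Alternatives tried were DESeq2 1.42.0, other scalings and filters, wider sets of libraries, a smooth muscle covariate, a replicate block and leaving out each library.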

Additional observations from a re-analysis of the deposited data

Results flagged for a closer look

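Of the genes with the largest changes in the muscle-rich water libraries, 16 differed in their genotype effect between muscle-rich and muscle-poor water libraries by the interaction test. The values are the muscle-rich minus the muscle-poor log2 difference between GRDim and GRWT. Among genes higher in GRDim, these were Ubd 5.50, Hapln1 4.58, Slc6a14 4.49, Abca12 4.04, Serpina3f 3.46, Ceacam10 3.30, Cd177 3.25 and Tgtp1 3.23. Among genes lower in GRDim, they were Nr0b2 -5.51, Plb1 -3.80, Aadac -2.98, Pbld1 -2.35, Slc5a4b -2.26, Slc47a1 -2.11, Iyd -1.60 and Slc5a4a -1.25. The genes were picked for large changes in libraries that this test also uses, so the direction of the difference is no independent evidence. Among GRDim libraries on water, muscle class cannot be told apart from the tissue label.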

How the results depend on the processing

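Across DESeq2, other scalings and filters, all 12 muscle-rich libraries and leaving out each library, the main counts stayed within 1.5 times 870 and 831 (without 1 replicate, 816 to 948 and 769 to 840). All 11 water libraries with muscle class gave 677 higher and 521 lower genes and ended the call of 53 of the 165 called genes named by the rule, the smooth muscle covariate gave 365 and 298 and ended the call of 78, and adjusted p alone 3405 and 3247. A change of sign was seen for Ugt2a3 (0.20) and Hspa1a (0.27) with the smooth muscle covariate and for Mcpt1 (-0.67), Mcpt2 (-0.77) and Cpa3 (-0.10) in all 11 water libraries; the cause was not tested. Of the 165, 60 held their call under every alternative and 94 under every one but the covariate. The interaction counted 803 to 1826 genes without 1 replicate. In the muscle-poor libraries, library totals alone gave 122 higher genes, and leaving out 1 replicate 38 to 148 higher and 45 to 163 lower; under zinc, leaving out 1 gave 234 to 514 higher and 142 to 201 lower. Genotypes share replicate numbers 4 and 5, whose deviations correlated at 0.151 and -0.084, beside -0.231 to 0.146 for pairs with unlike numbers. These values cannot decide whether same-numbered libraries are paired. With a replicate block the genotype difference rests on replicates 4 and 5, since replicates 1 and 6 occur in only 1 genotype. Little is then left to estimate the spread. In that fit 832 genes were higher and 842 lower. Of the 165, 12 lost their call, among them Slc6a14 (adjusted p = 0.0516), B3gnt7 (0.0743) and Cyp3a44 (0.155). Sis (0.0916), Nos2 (0.0719) and Reg3a (0.155) also lost theirs, while Fgf15 gained one (6.69e-11) under the same limit. Counts of a few reads limit Nr0b2, Slc2a2, Ifng and Il17a.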

Other observations

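Genes outside the lists were also called in the same direction in all 3 genotype comparisons, which share no library; they were picked after their values were seen. Higher in GRDim were Aqp4, a water channel (log2 1.63 in the muscle-rich water, 0.94 in the zinc and 1.24 in the muscle-poor libraries), Cd226, a receptor of T and natural killer cells (2.04, 1.19 and 0.82), and Ckap4, a protein of the endoplasmic reticulum (1.42, 1.01 and 0.90). Lower in GRDim were Leap2, a liver and gut peptide that antagonises the ghrelin receptor (-4.57, -2.49 and -1.93, from a mean of 1.24 CPM), Ano6, a phospholipid scramblase (-1.49, -1.01 and -0.95), Plscr1, another protein of that function (-1.40, -0.94 and -0.83), and Plod2, a collagen lysyl hydroxylase (-1.13, -1.26 and -1.93).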
